A study of Mus musculus with 3 samples.

Results

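The 49 genes described here are cell cycle and proliferation genes, listed by symbol: 21 genes of G1 and S phase, 21 of G2 and mitosis, and 7 inhibitors of the cycle. They were matched by symbol to the probe sets of the array, and for each gene the probe set that was brightest on average, by mean log2 signal on the 3 arrays, stands for it. Of the 49 genes, 48 had a probe set annotated to that gene alone, out of 18193 genes represented in all, and each of the 48 was above the floor of at least 1 array. Ccnb1, the remaining gene, has no signal here and enters only the promoter counts. Signal is the deposited intensity of a probe set on its linear scale, and the floor of an array is the median signal of its probe sets other than controls, at 14.5 for the iris, 17.3 for the ciliary body and 16.8 for the retinal array.

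The RNA was taken from primary mouse cultures of the pigmented epithelium that lines the iris (IPE), the ciliary body (CBPE) and the outer face of the retina (RPE). The donors of all cultures were C57BL/6 mice aged 6 to 8 weeks, with no genetic change or drug named in the labels. IPE and CBPE grew in RPMI 1640 and RPE in DMEM, with 10% serum for the former and 20% for RPE, and every culture was moved to medium without serum overnight before its RNA was taken. The labels give the cytokeratin-positive share as over 99% for IPE and over 95% for CBPE and RPE, and 14 days of culture for CBPE and RPE. How many animals, dishes or passages went into each RNA is not stated in the labels. Every culture has a single array, so no value below has a replicate error and no test between cultures was possible. Where 3 signals follow each other below, they are those of IPE, CBPE and RPE, in that order. A gene is counted as higher or lower where its signals on 2 arrays differed at least 2-fold with at least 1 of them above the floor. Medium and serum differ with tissue in both comparisons that involve RPE, and culture time for IPE is not given, so these cannot be told apart from tissue.

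A cell enters the cycle in G1, when D cyclins with Cdk4 and Cdk6, and then E cyclins with Cdk2, phosphorylate the retinoblastoma protein and release E2F transcription factors. E2F then drives the genes that license origins and make DNA, while a later programme, bound by Foxm1 and the MuvB complex, drives the genes of G2 and mitosis around Cdk1. The Cip/Kip and Ink4 inhibitors bind the cyclin-dependent kinases and hold cells back. Pigment epithelium in the adult eye divides rarely, and it can re-enter the cycle when it is dissociated and plated in serum.

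The arrays differed beyond the cell cycle. The 2% trimmed mean of the deposited signals was 100.001 on every array, but the highest signals were 8441, 19334 and 13849. For the Actb control, 3′ signal over 5′ signal was 1.5 in IPE against 2.26 and 2.25 in CBPE and RPE, and for the Gapdh control it was 0.94 against 1.23 and 1.25. The hybridisation controls, spiked in at set amounts, had geometric means of 1239, 3192 and 1941 over 12 probe sets, lowest in IPE and highest in CBPE. The 5′ probe set of ribosomal 18S RNA was at 17.6, 274.3 and 27.7. The part of these array differences in the differences from IPE was not tested. Probe sets for bacterial transcripts that no sample holds reached 20.2 on the CBPE array, so signals near that level carry little information. The markers of pigment epithelium summed to signals of 5653, 646.4 and 1713, with Rpe65 under the floor on all 3 arrays and Dct, Pmel and Rlbp1 under it in CBPE. Among the epithelial markers, Krt18 was above the floor in every culture and Cdh1 in none.

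The cell cycle genes were mostly lowest in IPE. Of the 46 members above the floor on all 3 arrays, 38 (82.6%) had their lowest signal in IPE, against 38.6% of all 10244 such genes. The highest signal lay in CBPE for 26 (56.5%) and in RPE for 16 (34.8%), against 29.7% and 28.4% of all such genes. By stage, the lowest signal lay in IPE for 15 of 20 G1/S members, 19 of 20 G2/M members and 4 of 6 inhibitors. When the array medians were made equal, IPE was lowest for 34 of the 46, against 27.4% of all genes, and after quantile normalization for 38, against 45.4%. In these bulk RNA samples, fewer cycling cells and less transcript per cell cannot be told apart.

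In CBPE against IPE, 7 of 20 measured G1/S members were at least 2-fold higher in CBPE and none lower, 10 of 20 G2/M members were higher and none lower, and 4 of 7 inhibitors were higher and 1 lower. Of all 12831 genes measured in that comparison, 11.7% were at least 2-fold higher in CBPE and 12.5% lower. In RPE against IPE, 2 of 21 G1/S members were higher in RPE and 2 lower, 14 of 20 G2/M members were higher and none lower, and 5 of 7 inhibitors were higher and none lower. The matching shares over all 12446 genes were 9.86% higher and 10.5% lower, so the G1/S counts in RPE were at the level of all genes, whereas the G2/M count was above it. The median log2 differences of G1/S, G2/M and inhibitor members were 0.87, 1.13 and 1.83 in CBPE minus IPE, where the median of all genes was 0.039, and 0.51, 1.12 and 1.43 in RPE minus IPE, where it was 0.017. The IPE array is shared by both comparisons.

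**Figure D1:**
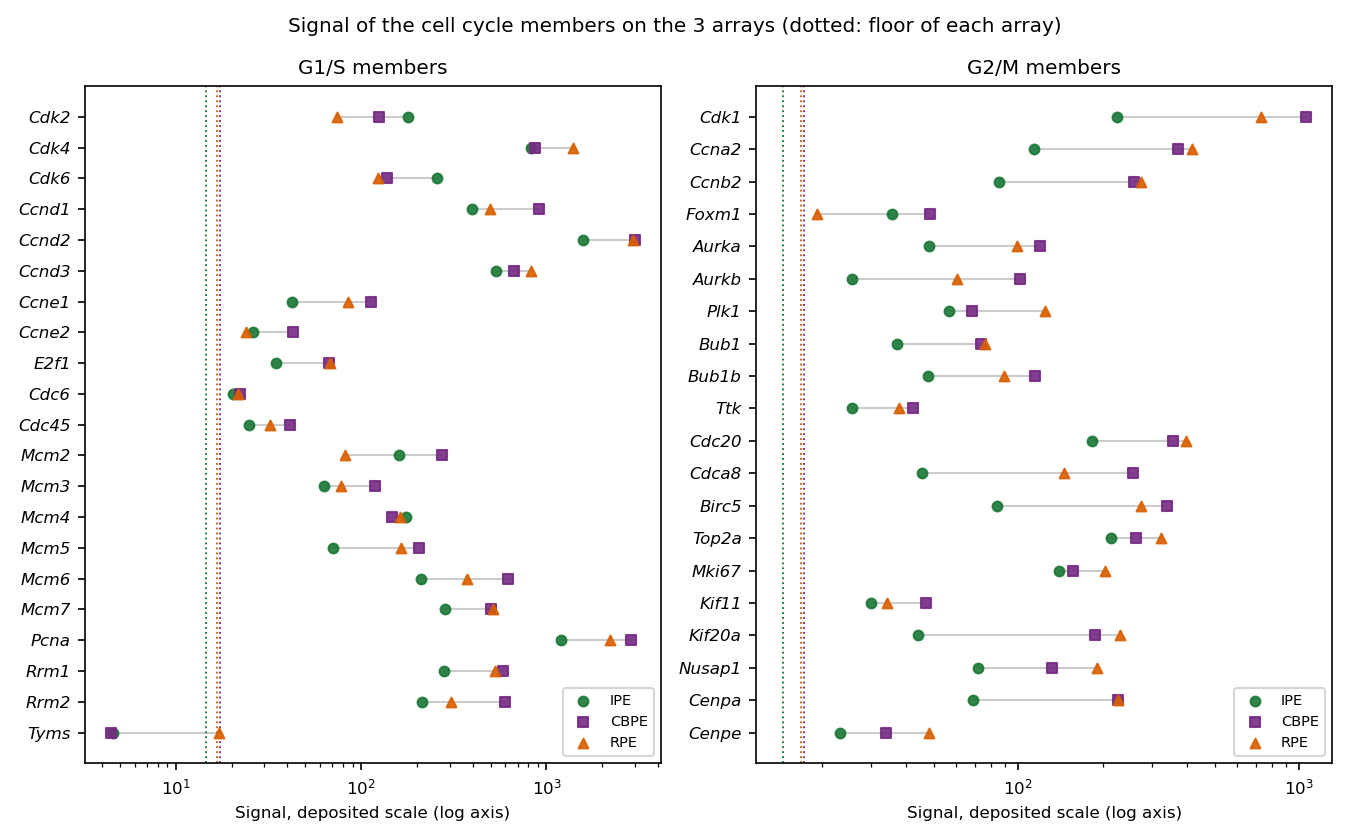
Signal of each G1/S member (left) and G2/M member (right) on the IPE (circles), CBPE (squares) and RPE (triangles) arrays, 1 array each, on a log axis in the deposited units, with the floor of each array as a dotted line. Circles lie at the left end for 19 of 20 G2/M members, with Foxm1 as the exception, while Cdk2, Cdk6 and Mcm4 have them at the right end.

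Stretches of promoter are shown for 6 members that stand for the 3 groups and for the range of their responses. RefSeq start sites of build GRCm38.p6 were matched for 39 of the 49 members, with 44 start sites in all, and the 250 bases before each were searched on both strands. The CHR element (TTTGAA or TTTAAA) and the CCAAT box (CCAAT) are known from promoters of G2 and mitosis genes, and the E2F consensus (TTTCCCGC, TTTCGCGC, TTTGCCGC or TTTGGCGC) from those of G1/S genes. All matches are in capitals, in either orientation, and neighbouring E2F matches can overlap. The windows are chr10:69352913-69353162 on the minus strand for Cdk1, chr5:30666636-30666885 on the plus strand for Cenpa, chr7:135716380-135716629 on the minus strand for Mki67, chr1:128359706-128359955 on the minus strand for Mcm6, chr6:134920151-134920400 on the plus strand for Cdkn1b and chr4:89311033-89311282 on the minus strand for Cdkn2b. Each lies just before the annotated transcript, is written 5′ to 3′ along it and ends at the base before the start site.
Cdk1: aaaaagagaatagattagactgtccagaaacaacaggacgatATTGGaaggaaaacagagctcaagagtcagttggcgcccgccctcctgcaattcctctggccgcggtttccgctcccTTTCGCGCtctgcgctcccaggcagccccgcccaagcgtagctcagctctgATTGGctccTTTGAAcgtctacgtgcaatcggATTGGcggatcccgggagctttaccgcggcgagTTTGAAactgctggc
Cenpa: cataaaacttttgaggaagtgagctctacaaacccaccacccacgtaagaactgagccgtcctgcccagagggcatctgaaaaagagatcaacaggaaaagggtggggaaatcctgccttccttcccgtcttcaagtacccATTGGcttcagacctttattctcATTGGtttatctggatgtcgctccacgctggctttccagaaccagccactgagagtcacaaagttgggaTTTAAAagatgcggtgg
Mki67: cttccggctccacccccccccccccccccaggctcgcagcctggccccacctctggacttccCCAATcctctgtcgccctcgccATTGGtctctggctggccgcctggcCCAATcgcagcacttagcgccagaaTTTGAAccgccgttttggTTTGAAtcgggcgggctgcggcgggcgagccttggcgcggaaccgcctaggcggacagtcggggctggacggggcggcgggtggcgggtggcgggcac
Mcm6: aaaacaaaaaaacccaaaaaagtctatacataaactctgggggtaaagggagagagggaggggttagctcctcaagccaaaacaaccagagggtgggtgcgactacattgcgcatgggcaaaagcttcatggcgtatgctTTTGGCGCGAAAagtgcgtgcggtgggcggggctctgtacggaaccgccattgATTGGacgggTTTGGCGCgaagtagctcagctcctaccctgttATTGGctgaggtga
Cdkn1b: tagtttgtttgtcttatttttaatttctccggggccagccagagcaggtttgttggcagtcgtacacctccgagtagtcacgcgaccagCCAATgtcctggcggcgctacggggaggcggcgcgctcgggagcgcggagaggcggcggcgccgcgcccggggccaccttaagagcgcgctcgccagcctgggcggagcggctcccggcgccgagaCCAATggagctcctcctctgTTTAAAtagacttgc
Cdkn2b: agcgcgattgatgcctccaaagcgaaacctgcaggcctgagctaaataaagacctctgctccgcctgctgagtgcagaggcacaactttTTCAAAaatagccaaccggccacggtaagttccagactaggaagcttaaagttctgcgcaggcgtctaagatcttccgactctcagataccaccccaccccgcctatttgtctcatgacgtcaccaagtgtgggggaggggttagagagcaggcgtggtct

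A CHR element was present in 10 of 17 windows of G2/M members (58.8%) and 4 of 19 of G1/S members (21.1%), against 25.2% of all 32851 windows. A CCAAT box was present in 15 of 17 (88.2%) and 12 of 19 (63.2%), against 33.8% of all windows, and 11 of 17 G2/M windows held 2 or more, against 10.1%. An E2F consensus was found in 5 of 19 G1/S windows (26.3%) and 1 of 17 G2/M windows (5.88%), that of Cdk1, against 1.86% of all. Of the 8 windows of inhibitor genes, that of Cdkn1b had a CCAAT box, and with a CHR element that begins 15 bases before the start site it carries the same pair of motifs as Cdk1. Of the 8 measured G2/M members whose window held both a CHR element and a CCAAT box, 3 were at least 2-fold above IPE in CBPE, against 4 of the 8 G2/M members whose window lacked one or both, and the counts were 5 of 8 and 6 of 8 for RPE. Mki67, whose window holds 2 CHR elements and 3 CCAAT boxes, differed least from IPE among the G2/M members in CBPE.

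The G1 cyclins and their kinases did not move as a block. Ccnd1, a D cyclin induced by growth factors, had signals of 396.7, 909 and 496.7, and CBPE was 2.29-fold above IPE. Its 3 probe sets all placed CBPE above IPE, by log2 differences of 0.40 to 2.10, and disagreed on RPE against IPE, from -0.30 to 2.06. Ccne1, which with Cdk2 carries cells into S phase, was at 42.6, 113.2 and 85.3 in IPE, CBPE and RPE, which is 2.66-fold for CBPE and just at the limit for RPE, and both of its probe sets agreed. Ccnd2, another D cyclin, was at 1585, 2993 and 2925, so that CBPE and RPE were 1.89-fold and 1.85-fold above IPE. All 7 of its probe sets placed both cultures above IPE, over a wide span of log2 differences, from 0.16 to 3.11 for CBPE and from 0.67 to 3.85 for RPE. Ccnd3 was at 533.6, 670.2 and 820.6, and Ccne2 at 26.1, 42.9 and 23.8, all within 2-fold.

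The kinases of G1 lay the other way or did not differ by 2-fold. Cdk6, a partner of D cyclins, was at 256.6, 137.7 and 123.4, which is 2.08-fold lower in RPE and 1.86-fold lower in CBPE. Both of its measured probe sets had IPE highest. Cdk2, the partner of E cyclins, was at 180.1, 125.3 and 73.9, and was 2.44-fold below IPE in RPE by its 1 measured probe set. Cdk4 was at 824.6, 863.2 and 1388, and its 3 probe sets placed RPE above both other cultures, by 1.68-fold over IPE for the brightest. No other member was at least 2-fold below IPE in RPE on the deposited scale. Cdk6 lost that call after quantile normalization, at a log2 difference of -0.85. Cdk2 and Cdk6 both lost it when all probe sets were averaged, including those under the floor on all arrays. With equal medians Mcm2 and Foxm1 also passed as lower.

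Among the genes that license and fire replication origins, Mcm5 and Mcm6 differed most in CBPE against IPE. Both encode subunits of the replicative helicase. Mcm6 was at 211.8, 622.9 and 371.8, and Mcm5 at 70.6, 205.2 and 164, so that CBPE was 2.94-fold and 2.91-fold above IPE and RPE was 1.76-fold and 2.32-fold above it. IPE was lowest in both probe sets of each gene that were measured in all comparisons. Mcm7 was at 284.8, 502.6 and 512.2, below 2-fold, with IPE lowest in all 4 probe sets. Mcm4 was highest in IPE, at 173.9 against 146.3 in CBPE and 161.7 in RPE. Mcm2 was at 160.5, 272.4 and 81.4, and RPE was 3.35-fold below CBPE, but its other probe set, at 128.5, 103.7 and 83.5, gave a log2 difference of only -0.31 between them. The 5 probe sets of Mcm3 split on both comparisons with IPE. Its brightest had signals of 63.1, 119.6 and 77.7.

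E2f1, which activates this programme, was at 34.7, 67 and 67.6, which is 1.93-fold and 1.95-fold and just under the limit. Cdc45, a helicase cofactor, was at 24.7, 41.6 and 32.1. Cdc6, which loads the helicase, was at 20.4, 22.2 and 21.7, close to the floors and to the level of absent bacterial controls in CBPE, so no difference was measurable for it.

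All 3 measured genes of DNA and nucleotide synthesis were at least 2-fold above IPE in CBPE by their brightest probe set, and none of 4 reached that limit in RPE. The shares of all genes that reached it were 11.7% in CBPE and 9.86% in RPE. Scaling ended 2 of the 3 calls, that of Pcna after quantile normalization, at a log2 difference of 0.79, and that of Rrm1 with equal medians, at 0.80. Pcna, the sliding clamp of DNA polymerase, was at 1195, 2854 and 2203, or 2.39-fold and 1.84-fold above IPE. Rrm1 and Rrm2 encode the subunits of ribonucleotide reductase, which makes deoxyribonucleotides. Rrm2 was at 214.3, 597.3 and 304.3 by its brightest probe set, 2.79-fold above IPE in CBPE, while the log2 difference ran from -0.34 to 1.48 over its 3 probe sets. Rrm1 was at 281.1, 582.1 and 530.9 by one probe set and at 387.4, 376 and 377.3 by the other, so its 2.07-fold difference between CBPE and IPE rests on one of them. Tyms, thymidylate synthase, was at 4.6, 4.5 and 17.2, under the floor in IPE and CBPE and barely above it in RPE. A probe set that the annotation assigns jointly to Tyms and its pseudogene was at 99.3, 361.7 and 277.8, and was kept out of all counts because its source is ambiguous.

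Among the G2/M members, Cdk1 and its cyclins were well above IPE in both other cultures. Cdk1, the kinase that starts mitosis, was at 225.3, 1056 and 730.9 by its single probe set, or 4.69-fold and 3.24-fold. Ccna2, a cyclin of S phase and G2, was at 113.4, 371.8 and 416.7, which is 3.28-fold in CBPE and 3.67-fold in RPE. Both of its probe sets placed IPE lowest. The second, at 118.1, 333.3 and 196.9, gave a log2 difference of 0.74 in RPE minus IPE. The 2-fold call of Ccna2 in RPE therefore rests on 1 probe set. Ccnb2, a mitotic cyclin, was at 85.4, 259.3 and 274.4, 3.04-fold and 3.21-fold. By the brightest probe set of each of these 3 genes, CBPE and RPE were within 1.44-fold of each other while IPE lay apart. Foxm1, the transcription factor that activates many of these genes, did not share the pattern. It was at 35.6, 48.5 and 19.2, its probe sets split on both comparisons with IPE, and RPE was 2.53-fold below CBPE with all 3 measured probe sets on that side.

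Of 9 mitotic kinases and checkpoint genes, 5 were at least 2-fold above IPE in CBPE and 7 in RPE. All 9 of these genes lay above IPE in both cultures, by any amount. The shares of all genes at least 2-fold higher were 11.7% in CBPE and 9.86% in RPE. Cdca8 and Birc5, subunits of the chromosomal passenger complex that corrects spindle attachment, reached 2-fold in both cultures. Cdca8 was at 45.4, 257.2 and 145.5, which is 5.67-fold and 3.2-fold, and all 3 of its probe sets had IPE lowest. Birc5 was at 84, 339.4 and 273, or 4.04-fold and 3.25-fold. Aurkb, the kinase of that complex, was at 25.6, 101.4 and 60.5, or 3.96-fold and 2.36-fold. The second probe set of Aurkb gave log2 differences of 0.92 for CBPE and 0.06 for RPE, so the RPE difference rests on one probe set.

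Of the kinases that act at spindle poles, Aurka was at 48, 119.2 and 99.2 in IPE, CBPE and RPE, or 2.48-fold and 2.07-fold above IPE. Plk1 was at 56.5, 68.6 and 124.7, and RPE alone reached the limit, at 2.21-fold above IPE. Bub1, Bub1b and Ttk belong to the spindle checkpoint, which delays anaphase. Bub1b was at 47.7, 114.4 and 88.9, 2.4-fold higher in CBPE and 1.86-fold in RPE. Bub1 was at 36.9, 73.6 and 76.2, on either side of the limit at 1.99-fold and 2.07-fold, and Ttk at 25.6, 42.3 and 37.7, below it. Cdc20, which activates the anaphase-promoting complex, was at 183.5, 355.4 and 395.4, or 1.94-fold and 2.15-fold, with 1 of its 3 probe sets below 0 for RPE.

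Within the genes of chromosomes and the spindle, the size of the difference varied widely. Kif20a, a motor needed for cytokinesis, was at 44.1, 188.2 and 231.1, or 4.27-fold and 5.24-fold above IPE. Cenpa, the centromeric histone, was at 69.3, 227.4 and 227.2, 3.28-fold in each. Nusap1, which bundles spindle microtubules, was at 72, 132.2 and 190.1, or 1.84-fold and 2.64-fold, and Cenpe, a kinetochore motor, at 23.3, 33.8 and 48.3, or 1.45-fold and 2.07-fold. Of the common proliferation markers, Mki67 and Top2a differed from IPE by less than 2-fold. Mki67, the gene of the Ki-67 antigen, was at 140.2, 157.2 and 203.3, which is 1.12-fold in CBPE and 1.45-fold in RPE. Top2a, the topoisomerase that untangles chromosomes, was at 214.4, 262.8 and 322, or 1.23-fold and 1.5-fold. Kif11, a motor that separates spindle poles, was at 30, 47 and 34.1, and 2 of its 3 probe sets placed IPE above both others.

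Of the 7 inhibitor members, Cdkn1a, Cdkn1b, Cdkn2a and Cdkn2b were at least 2-fold above IPE in both CBPE and RPE. Cdkn2b, whose Ink4 protein blocks Cdk4 and Cdk6 and which is a known target of TGF-β, had the largest difference from IPE among members above the floor on both arrays compared. It was at 154.3, 1597 and 1093, or 10.4-fold and 7.08-fold above IPE by its single probe set. Its neighbour on chromosome 4, Cdkn2a, which encodes the Ink4a and Arf tumour suppressors, was at 14.1, 68 and 68.6. The IPE signal was under the floor, so the differences are bounds, at least 4.69-fold for CBPE and at least 4.73-fold for RPE. Transcripts of Ink4a and Arf were not told apart here. Cdkn2c, another Ink4 gene, was at 215, 276.5 and 327.5, within 2-fold.

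Of the Cip/Kip genes, Cdkn1a, which encodes p21 and is a classical p53 target, was at 399.1, 1418 and 1074, or 3.55-fold and 2.69-fold. Both of its probe sets reached 2-fold in both cultures. The second was dim, at 13.4, 29.2 and 30.4, and under the floor in IPE, so its differences are bounds. Cdkn1b, which encodes p27 and is typical of resting cells, was at 78.3, 335.8 and 244.3, or 4.29-fold and 3.12-fold, by its 1 measured probe set. Cdkn1c, an imprinted gene of the same family, differed in RPE alone. It was at 775, 752.4 and 1890, so RPE was 2.44-fold above IPE and 2.51-fold above CBPE. Rb1, the retinoblastoma gene itself, was at 163.2, 79.3 and 152.7, 2.06-fold below IPE in CBPE and close to IPE in RPE. After quantile normalization the Rb1 difference between CBPE and IPE was under 2-fold.

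**Figure D2:**
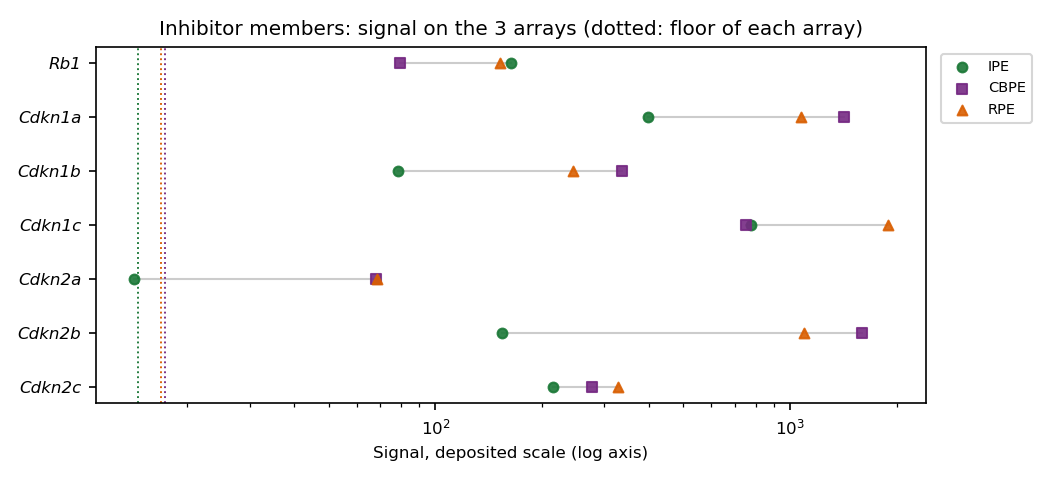
Signal of the 7 inhibitor members on the IPE, CBPE and RPE arrays, 1 array each, on a log axis in the deposited units, with the floors as dotted lines. Cdkn2b spans the widest range, from 154.3 in IPE to 1597 in CBPE, and Cdkn2a in IPE lies under the floor. Cdkn1c is well above the floors in every culture and highest in RPE.

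Between RPE and CBPE few members differed by 2-fold. Of 48 measured members, 1 was at least 2-fold higher in RPE, Cdkn1c, and 2 were lower, Mcm2 and Foxm1, while 3.75% and 4.26% of all 12860 genes were higher and lower, so the counts were near the level of all genes. Of the G1/S members, 16 of 21 had a log2 difference below 0, with a median log2 difference of -0.32. The 16 include Tyms, whose RPE signal of 17.2 was above its CBPE signal of 4.5 before the latter was raised to the CBPE floor of 17.3. The medians of G2/M members and inhibitors were 0.024 and 0.013 and that of all genes was -0.002. When all probe sets of a gene were averaged, the G1/S median was -0.099. The members nearest the limit were Rrm2, at 304.3 in RPE against 597.3 in CBPE, and Rb1, at 152.7 against 79.3.

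Probe sets of one gene gave the only measure of error. Over genes with signals above 100 on both arrays, the pooled SD of the log2 difference between probe sets of a gene was 0.49 for CBPE minus IPE, 0.45 for RPE minus IPE and 0.29 for RPE minus CBPE, and it leaves out the spread between cultures and hybridisations. Of the 11 members at least 2-fold above IPE in CBPE that had several measured probe sets, 9 had every probe set above 0 and 5 had every probe set at least 2-fold higher, with Rrm1 and Rrm2 split. Of the 8 such members in RPE, 7 had every probe set above 0, with Cdc20 split, and 2 had every one at least 2-fold higher. With the mean of all probe sets in place of the brightest, 8 of 20 G2/M members were at least 2-fold higher in CBPE and 8 of 20 in RPE, against 8.36% and 6.94% of all genes. Over all members, that mean ended the calls of Mcm5, Rrm1, Rrm2, Aurka, Cenpa and Rb1 in CBPE, and of Cdk2, Cdk6, Mcm5, Aurka, Aurkb, Bub1, Cdc20, Nusap1, Cenpa, Cenpe and Cdkn1b in RPE. It newly called Ccnd2 higher in CBPE, and Ccnd2 and Bub1b higher in RPE. The mean takes in probe sets under the floor on all arrays. Cdk2, Aurka, Nusap1, Cenpa, Cenpe, Cdkn1b and Rb1 have only 1 measured probe set each, so their lost calls do not show that measured probe sets disagree.

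**Figure D3:**
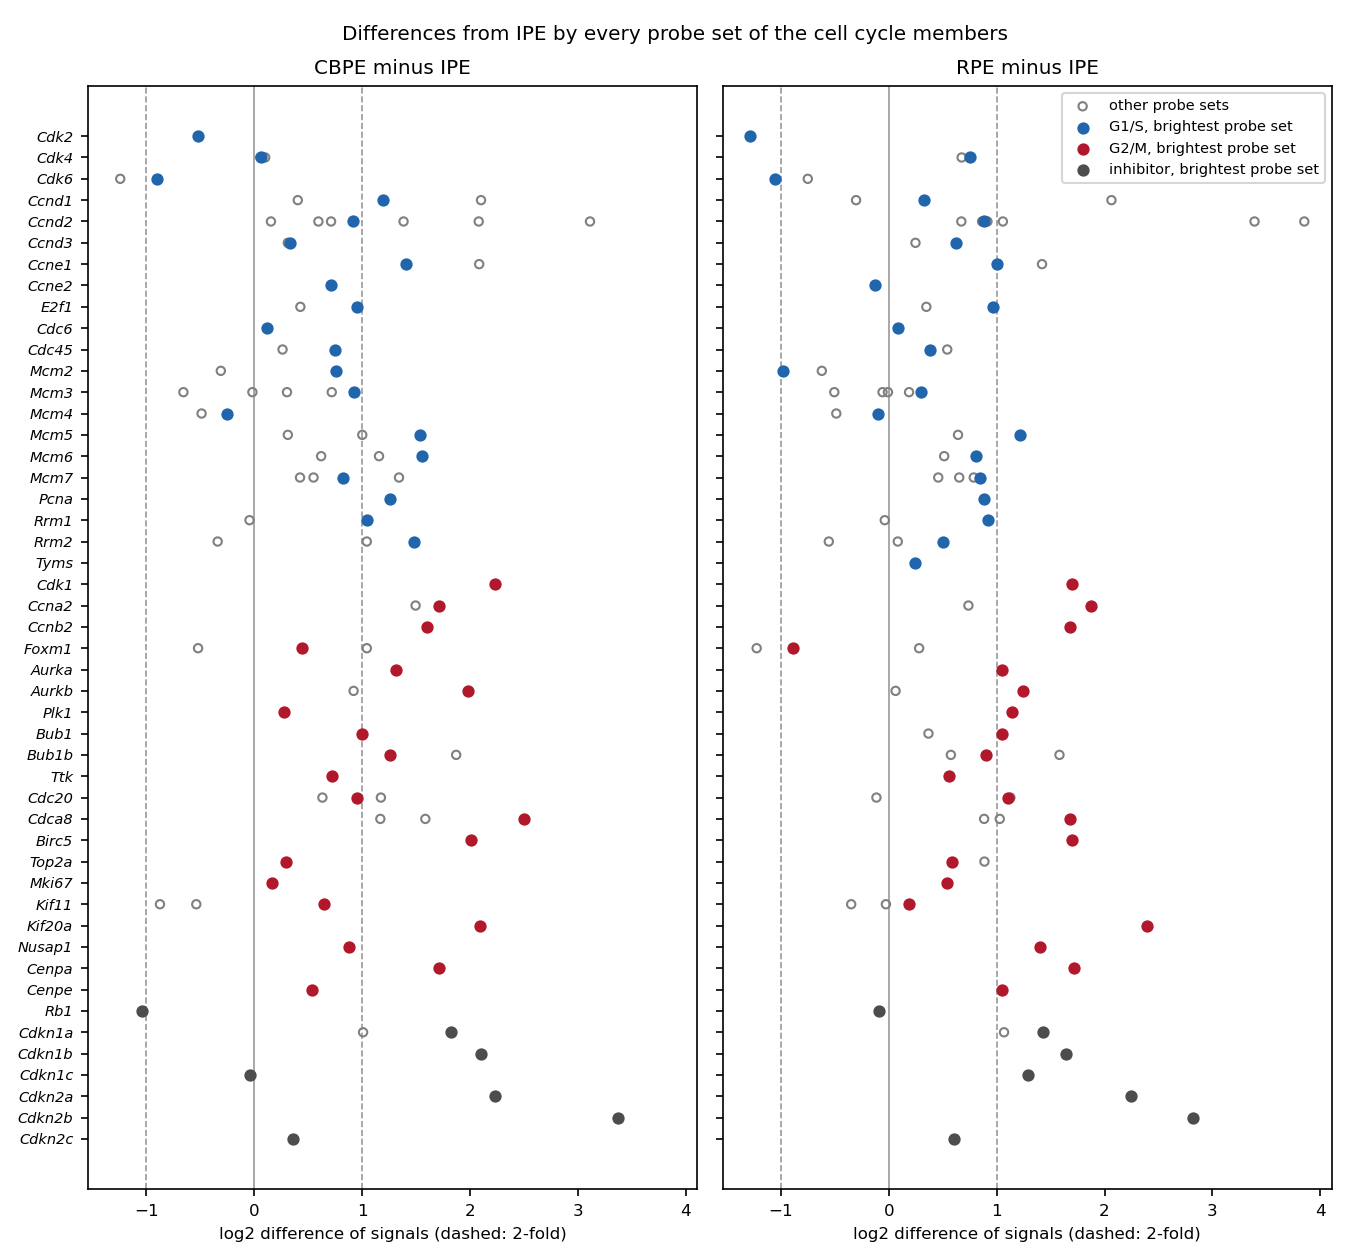
Log2 difference of signals for every measured probe set of each member, CBPE minus IPE (left) and RPE minus IPE (right), with the brightest probe set filled and the others open; dashed lines mark 2-fold, and Cdkn2a is drawn at its lower bound. Most filled points of the G2/M group (red) lie right of 0, and in both panels the points of Mcm3, Rrm1, Rrm2, Foxm1 and Kif11, open and filled, fall on both sides of 0.

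The counts moved with the scaling of the arrays. Equal medians moved the median of all genes to -0.22 for CBPE and -0.20 for RPE relative to IPE, and turned the split of all genes into 7.36% higher and 18.5% lower in CBPE and 6.28% higher and 15.4% lower in RPE. Under it the G1/S members were 5 higher and 1 lower in CBPE and 1 higher and 3 lower in RPE, and the G2/M members 10 higher and none lower in CBPE and 9 higher and 1 lower, Foxm1, in RPE. After quantile normalization the G1/S counts were 9 higher and none lower in CBPE and 4 higher and 1 lower in RPE, and the G2/M counts 13 and 15 higher with none lower. The inhibitors then had 4 higher and none lower in CBPE. Quantile normalization also shifted the split of all genes, to 13.3% higher and 9.53% lower in CBPE and 11.1% higher and 8.05% lower in RPE. Calls against IPE that equal medians ended were Ccnd1 and Rrm1 in CBPE and Ccne1, Aurka, Plk1, Bub1, Cdc20 and Cenpe in RPE, and those that quantile normalization ended were Pcna and Rb1 in CBPE and Cdk6 in RPE. The medians of all 3 groups stayed above that of all genes in both comparisons with IPE under each of the 7 alternatives of scaling, floor and probe set.

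**Figure D4:**
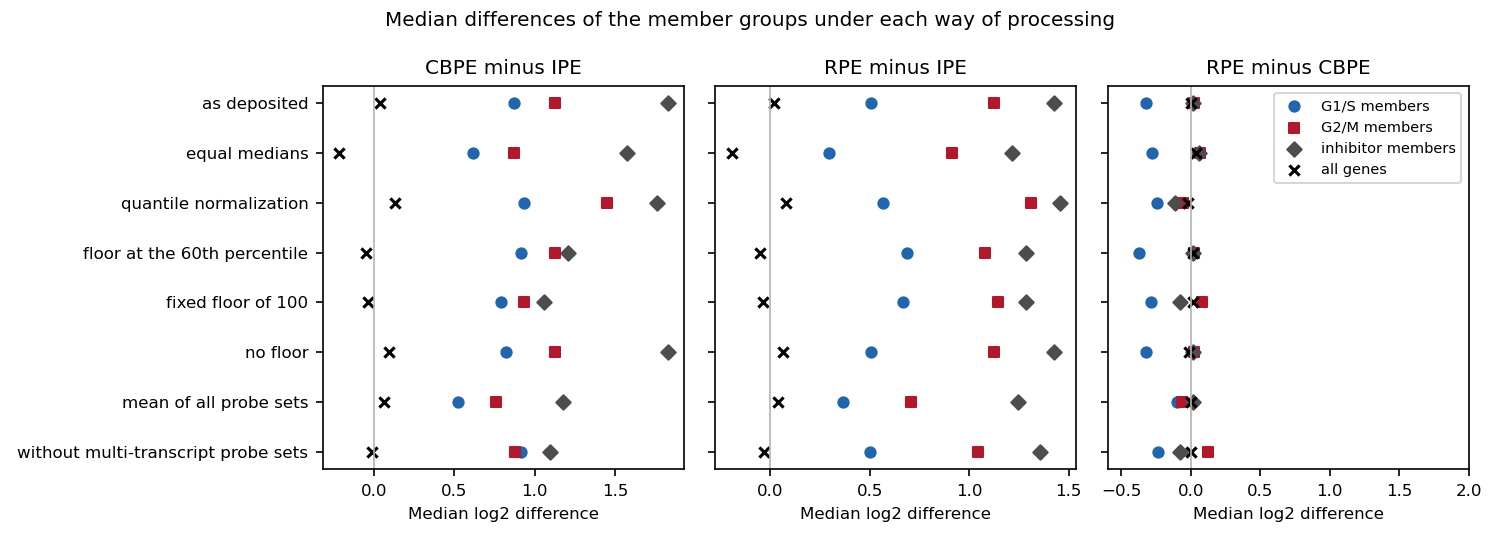
Median log2 difference of the G1/S (circles), G2/M (squares) and inhibitor members (diamonds) and of all measured genes (crosses) in the 3 comparisons, as deposited and under 7 other ways of processing. In the left and middle panels the crosses lie left of the symbols of all 3 groups in every line; in the right panel all symbols lie near 0, with the G1/S members leftmost.

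Other genes of the pathway were counted from lists that hold none of the members. Of 26 measured S phase genes, 11 were at least 2-fold above IPE in CBPE and none lower, with a median log2 difference of 0.89. In RPE 10 were higher and none lower, with a median of 0.78. Beside them, 11.7% of all genes were higher and 12.5% lower in CBPE, and 9.86% and 10.5% in RPE. Dut, which keeps uracil out of DNA, was at 139.2, 474.2 and 381.3, while its dimmer probe set gave a log2 difference of -0.55 in RPE minus IPE. Gmnn, the inhibitor of origin relicensing, was at 61.5, 225.1 and 155.3, and the primase gene Prim1 at 86.5, 227.6 and 215.6. Rfc4, a subunit of the clamp loader, was at 64.1, 148.6 and 164.6, and all 4 of these genes were at least 2-fold higher in both cultures than in IPE.

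Of the mitosis genes outside the members, at least 2-fold higher signals than in IPE were found for 17 of 38 in CBPE, with 1 lower. In RPE 16 of 39 were higher and none lower. The shares of all genes were 11.7% higher and 12.5% lower in CBPE, and 9.86% and 10.5% in RPE. Cks2, a cofactor of Cdk1, was at 248.6, 1317 and 852.4, or 5.3-fold and 3.43-fold. Ube2c, the ubiquitin-conjugating enzyme of the anaphase-promoting complex, was at 163.4, 591.1 and 428.4, and the checkpoint gene Mad2l1 at 120.2, 374.9 and 344.1. The gene that was lower in CBPE was Smc4, a condensin subunit, at 394, 168.7 and 376.7. Of the regulators of the RB, E2F and MuvB group, 3 of 15 measured were higher and none lower in CBPE, beside 11.7% and 12.5% of all genes, and none of 13 was higher or lower in RPE, beside 9.86% and 10.5%. The 3 were E2f7 at 28.9, 75.2 and 34.5, E2f8 at 7.1, 35.3 and 21, and E2f2 at 6.1, 31.2 and 16, the latter pair being under the floor in IPE, with CBPE higher by at least 2.43-fold for E2f8 and at least 2.15-fold for E2f2.

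Markers of other cell types differed between the same arrays, and their part in the cell cycle differences was not tested. Pericyte and smooth muscle markers summed to signals of 11140, 27730 and 18060 over 10 genes, with 5 above IPE in CBPE by at least 2-fold and 2 below it, 3 higher and 2 lower in RPE, and Rgs5 and Cspg4 under the floor in IPE. Fibroblast markers summed to 27350, 48130 and 38380 over 10 genes, with 5 higher and 1 lower in CBPE, 3 higher and 2 lower in RPE, and Dpt under the floor in IPE. Skeletal muscle markers summed to 90.8, 1628 and 1548 over 12 genes, with 1 of 12 above the floor in IPE, 6 in CBPE and 8 in RPE, 3 of 6 measured higher in CBPE and 6 of 8 in RPE, and Myog, Myod1 and Ckm under it on all arrays. Myh2 alone, at 32.8, 1363 and 808.8, made up most of the muscle sums in CBPE and RPE. All 3 of these lists had their lowest sum in IPE. Leukocyte and endothelial markers were highest in CBPE. The former summed to 358.3, 2369 and 528 over 10 genes, with 7 of 8 measured above IPE in CBPE, 2 of 7 higher in RPE, and Ptprc and Itgam under the floor on all arrays. The latter summed to 911.9, 1724 and 383.7 over 10 genes, with 6 of 9 measured above IPE in CBPE. In RPE 1 of 5 was higher and 1 lower, and Vwf was under the floor on all arrays. Emcn alone, at 745.1, 1115 and 211.2, made up most of each endothelial sum. Glial markers summed to 6658, 774.8 and 1459 over 9 genes, with 2 of 9 measured higher and 2 lower in CBPE. In RPE none of 7 was higher and 2 were lower, and Gfap and Sox10 were under the floor in CBPE and RPE. The 2 lower genes, Apoe at 3950, 292.4 and 591.3 and Glul at 2558, 309.6 and 743.2, made up most of each glial sum. Every other gene of the glial list was at 35.9 or less in IPE, so its high sum there rests on Apoe and Glul. Epithelial keratins and Epcam and Cdh1 together summed to 229, 634.9 and 329.3, with 3 of 4 measured above IPE in CBPE and 1 of 5 higher and 1 lower in RPE.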

How the data were processed

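Biotin-labelled RNA from 3 cultures was measured on 1 array each. The deposited table holds linear intensity values for 45101 probe sets, 64 of them controls. Neither the summary software nor its method is given in the sources used here. All arrays had an equal 2% trimmed mean, and the deposited scale was kept. Arrays have no read depth; their number, 1 per culture, limits the precision.

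Symbols came from a 2016 platform annotation, matched by gene identifier to RefSeq genes of GRCm38.p6. The table lists 35890 probe sets, 34958 with a single gene and 932 with several, which named none, and 9211 probe sets are unnamed here. Signals under an array's floor (50th percentile) were raised to it ahead of the log2 step, and folds against a signal at the floor are written as at least that size. The rule named every member, up to 4 genes per other cell cycle list that differed at least 2-fold from IPE, taken by mean log2 signal, and each marker list by counts and sums; Smc4 and the genes given as under the floor follow from it. The members and lists were chosen with earlier results of these data known. Alternatives changed the scaling, the floor, the probe set or the fold limit. The counting was tested on simulated data. The calculations used Python 3.11.15, numpy 2.4.6, pandas 2.3.3, scipy 1.17.1 and matplotlib 3.10.9.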

Additional observations from a re-analysis of the deposited data

How the results depend on the processing

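Counts are of members at least 2-fold different in either direction, unless another limit is named. A fixed floor of 100 drops dim genes and raises dim IPE signals to 100. With it, 6 of 14 measured G2/M members and 3 of 6 inhibitors differed between CBPE and IPE. The shares of all genes were 9.81% higher and 10.2% lower in CBPE. Between RPE and IPE, 1 G1/S member and 7 G2/M members differed, beside 8.4% of all genes higher and 8.0% lower. The count of G2/M members that differed between RPE and CBPE was 0, beside 1.66% and 2.17% of all genes. The G2/M count in RPE minus CBPE was also 0 with the floor at the 60th percentile and when all probe sets of a gene were averaged. That average gave 2 G1/S and 8 G2/M members in RPE minus IPE, beside 6.94% of all genes higher and 7.46% lower. When probe sets named as open to several transcripts were dropped, 6 G2/M members differed between CBPE and IPE. Of the 11160 genes still measured there, 10.7% were higher in CBPE and 13.9% lower. Between RPE and IPE, 2 G1/S and 9 G2/M members then differed, beside 9.1% of all genes higher and 11.8% lower. The count of G1/S members that differed between RPE and CBPE was 0, beside 4.12% and 4.22% of all genes. A 1.5-fold limit admits more genes by construction. At that limit, 15 of 20 measured G1/S members differed from IPE in CBPE and 13 of 21 in RPE. Of all genes, 24.4% were higher and 23.3% lower than IPE in CBPE, and 21.7% and 22.1% in RPE. Between RPE and CBPE, 8 of 21 G1/S members, 4 of 20 G2/M members and 2 of 7 inhibitors differed. There 12.7% of all genes were higher in RPE and 13.3% lower, so the G2/M and inhibitor counts were near the level of all genes. Beyond the genes that dropped out and the signals raised to a floor, the cause of these shifts was not tested. No called member changed sign under any of the 7 alternatives of scaling, floor and probe set. Signals near the floors, as for Cdc6, Tyms and Cdkn2a in IPE, set the limit of what could be measured. No paired analysis was possible because each culture had 1 array.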

Other observations

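Signals are given for IPE, CBPE and RPE, in that order. Of the 17 measured p53 target genes outside the members, 4 were at least 2-fold above IPE in CBPE and 2 in RPE, none lower, beside 11.7% and 9.86% of all genes, and the median log2 differences from IPE were 0.023 for CBPE and 0.46 for RPE. Plk2, a stress-induced kinase, was at a signal of 380.4, 1225 and 1349, and the death receptor gene Fas at 104.2, 287.4 and 368.2. Btg2, an antiproliferative gene, was at 72.3, 199.7 and 143.4, which is 2.76-fold in CBPE and 1.98-fold in RPE. Tnfrsf10b was under the floor in IPE and at 34.3 in CBPE and 20 in RPE. In RPE minus CBPE, 2 of 17 were at least 2-fold higher in RPE and none lower, beside 3.75% and 4.26% of all genes.

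Of 17 measured genes of the anaphase-promoting complex and SCF, the ubiquitin ligases that degrade cell cycle proteins, in CBPE 3 were higher than in IPE by 2-fold or more and 3 lower, and 2 were higher and none lower in RPE. The shares of all genes were 11.7% and 12.5% in CBPE and 9.86% and 10.5% in RPE, so these counts were near the background. Skp1, the SCF adaptor, was at 1402, 2845 and 2736, while the scaffold gene Cul1 was at 445, 213.5 and 298.9. Anapc10 and Cdc16, both subunits of the anaphase-promoting complex, were at 464.8, 1046 and 698.4 and at 587.9, 1046 and 1185. The median log2 differences of the list from IPE, 0.077 for CBPE and 0.24 for RPE, stood beside 0.039 and 0.017 for all genes.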
